A study of Mus musculus with 2 samples.

Results

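The 9 enzymes studied here make or salvage the building blocks of DNA, and their mRNA was compared between 2 cultured lines of mouse melanoma cells, B16F1-GFP-D (the D line) and B16F1-GFP-M (the M line). They were encoded by *Rrm1*, *Rrm2*, *Rrm2b*, *Tyms*, *Tk1*, *Dut*, *Cad*, *Umps* and *Dck*, chosen by name with earlier results of these data known. Every probe that carried one of these names, or an accession that now has one, was taken. This gave 19 of 41164 probes and 9 of 27790 genes. The mRNA of 6 of the 9 was at least 2-fold higher in the D line on both arrays, that of *Cad* and *Umps* was higher by less, and that of *Rrm2b* was the one that was not higher.

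B16F1-GFP-M is the maternal line, a B16F1 melanoma line (from a C57BL/6 mouse) that carries green fluorescent protein (GFP). B16F1-GFP-D is the line labelled as dormant: it was cloned from GFP-positive cells that had been sorted out of pooled organs of control and vaccinated tumour-free mice, so that it stands for 1 clone. Both lines grew untreated in the same serum-containing medium, and "dormant" refers to the founding cell in the mouse and not to the culture that gave the RNA. RNA of the 2 lines was labelled with Cy3 and Cy5 and bound to 2 Agilent arrays read in both colours on 1 slide. The dyes were exchanged, B16F1-GFP-D being in Cy3 on array 1 and in Cy5 on array 2.

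No separate cultures or extracts are named, so the arrays were taken as 1 replicate per line and no test was possible. Each SD below is the spread between the values of the 2 arrays. It holds dye and spot error and, as far as the labels tell, no variation between cultures. A gene was called by size alone, on a log2 ratio of 1 or more, of the same sign on each array. Of all genes, 12540 were detected, meaning well above background in at least 1 line on both arrays. Their ratios correlated between the arrays with r = 0.927 across genes, which are not independent, and their pooled SD was 0.15 (log2). Between 44.1% and 45.0% of spots were well above background in Cy3 and between 56.1% and 60.7% in Cy5, and none was saturated. All 10 melanocyte markers were detected and none was called, beside 3.09% of all detected genes called higher and 1.94% called lower. On both arrays 5 of them were lower in B16F1-GFP-D and 3 higher. The lowest was *Mitf*, with log2 ratios of -0.95 and -0.89. In these bulk samples, fewer cells with a transcript and less transcript per cell cannot be told apart.

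Deoxynucleotides for DNA are made from ribonucleotides by ribonucleotide reductase, a complex of the large subunit RRM1 with a small subunit. The small subunit is RRM2 in dividing cells, where it is made in S phase and destroyed afterwards, or RRM2B, a target of p53 that serves cells outside S phase and DNA repair. Thymidylate, which is used in DNA, is made by thymidylate synthase or by salvage of thymidine, and several of these genes are known targets of the E2F factors that start S phase.

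The probes were 60 bases long, and those shown here are the ones on which agreement between probes of a gene can be read. A pair of *Tyms* probes, on the minus strand of chromosome 5, overlapped by 40 bases in sequence and differed at 1 base, which is in capitals. Counted from 1 at the 5′ end of the first of them, this difference was A37C.

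Tyms probe 2, chr5:30387625-30388518 (mm9, minus strand): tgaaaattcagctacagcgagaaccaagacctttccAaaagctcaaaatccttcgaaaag
Tyms probe 1, chr5:30387605-30387664 (mm9, minus strand): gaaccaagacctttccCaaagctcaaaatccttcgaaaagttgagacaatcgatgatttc

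Probe 2 of *Tyms* spans 894 bases of the genome, which is more than its own length, as for a probe across a splice junction. The next sequences show a *Dck* probe that also spans more of the genome (1318 bases) than its length, and a pair of *Cad* probes that lie far apart in the gene. The *Cad* pair gave different ratios, but probe 4 was dim and the scanner software's ratios of the 2 probes overlapped. No capitals are used, as no base in them is singled out.

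Dck probe 2, chr5:89201833-89203150 (mm9, plus strand): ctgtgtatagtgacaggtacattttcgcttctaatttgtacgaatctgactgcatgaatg
Cad probe 3, chr5:31380314-31380482 (mm9, plus strand): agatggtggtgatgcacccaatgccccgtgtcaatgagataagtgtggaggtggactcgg
Cad probe 4, chr5:31369447-31369506 (mm9, plus strand): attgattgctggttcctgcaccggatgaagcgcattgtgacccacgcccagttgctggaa

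Ribonucleotide reductase was the step with the largest differences. *Rrm2*, the S phase small subunit, had a normalized level (log2 intensity) of 10.88 and 10.96 in B16F1-GFP-D on arrays 1 and 2, against 8.75 and 8.70 in B16F1-GFP-M. Both values of B16F1-GFP-D were above both of B16F1-GFP-M. The difference was 2.14 and 2.26 on the 2 arrays, a mean log2 ratio of 2.20 ± 0.09 (SD) or 4.60-fold, and *Rrm2* was 17th from the highest of the 12540 detected genes. It was also seen within each dye before any normalization: in Cy3 the signal of its 1 probe was 1048 for B16F1-GFP-D and 204 for B16F1-GFP-M, and in Cy5 it was 3734 and 797.

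*Rrm1*, the large catalytic subunit, had levels of 12.66 and 12.66 in B16F1-GFP-D and of 10.52 and 10.56 in B16F1-GFP-M. Its log2 ratio was 2.13 and 2.10, a mean of 2.11 ± 0.03 or 4.33-fold, 24th from the highest. The difference of 0.09 between the ratios of *Rrm2* and *Rrm1* was no larger than the SD of *Rrm2*. A second *Rrm1* probe was at background throughout, at -0.05 and 0.15, and gives no measurement.

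*Rrm2b*, the p53-dependent small subunit, went the other way. Its level was 6.29 and 6.25 in B16F1-GFP-D and 6.46 and 6.68 in B16F1-GFP-M, near the lower end of what the arrays could measure. The log2 ratio was -0.17 and -0.43, a mean of -0.30 ± 0.18, so the lines did not overlap but differed by 1.23-fold. In B16F1-GFP-D the probe was well above background on 1 of the 2 arrays, with a signal of 45.0 over a local background of 19 on array 1 and of 113.9 over 76 on array 2. The size of the ratio depended on how the background was treated: it was -0.83 with an offset of 0 in the background correction and -1.71 with the scanner software's own ratio, by which *Rrm2b* was called lower. The direction was the same in every setting run, and the amount by which *Rrm2b* was lower was not settled at this signal.

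**Figure D1:**
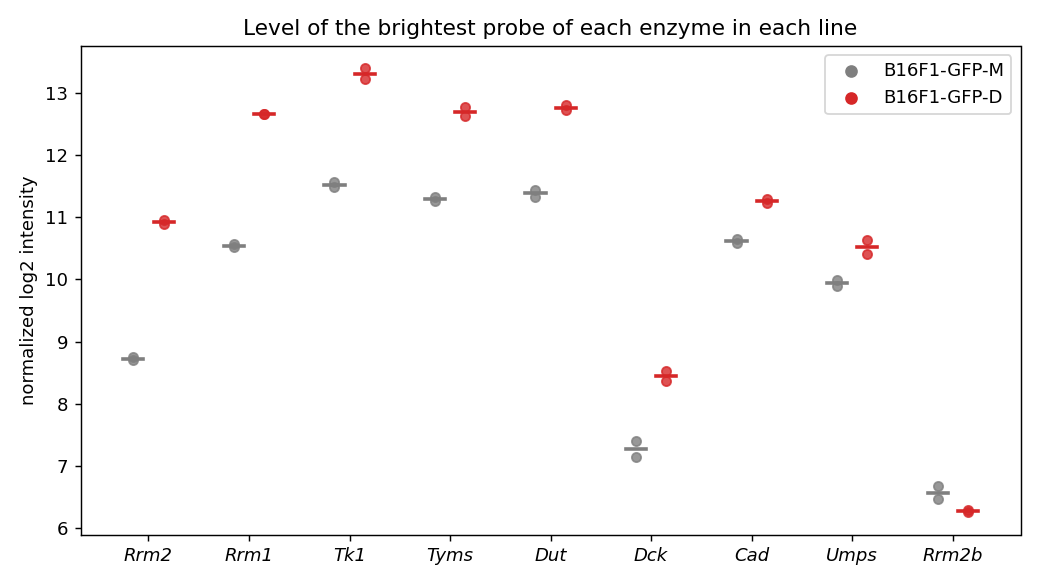
Normalized log2 intensity of the brightest probe of each enzyme (y axis) in B16F1-GFP-M (grey) and B16F1-GFP-D (red), with 1 point per array and a bar at their mean. Levels are to be compared between lines within a gene, not between genes; B16F1-GFP-D lies above B16F1-GFP-M in 8 of the 9 and below it for *Rrm2b*.

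The thymidylate enzymes were called as well. *Tk1*, the cytosolic thymidine kinase that salvages thymidine in S phase, had levels of 13.40 and 13.22 in B16F1-GFP-D and of 11.56 and 11.49 in B16F1-GFP-M. Its log2 ratio was 1.84 and 1.73, a mean of 1.78 ± 0.08 or 3.44-fold, and it was 55th from the highest.

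*Tyms*, which methylates dUMP to thymidylate, had levels of 12.77 and 12.62 against 11.32 and 11.26. Its log2 ratio was 1.45 and 1.36 with the brightest probe, a mean of 1.41 ± 0.06 or 2.65-fold. The overlapping probe shown above, with the 1 base difference, gave 1.51 and 1.30, so the pair did not differ beyond the spread between arrays. The third *Tyms* probe was not detected.

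*Dut*, the dUTPase that keeps uracil out of DNA and supplies dUMP, had levels of 12.72 and 12.81 against 11.32 and 11.44. Its log2 ratio was 1.39 and 1.37, a mean of 1.38 ± 0.02 or 2.60-fold, and a second probe gave 1.45 and 1.51. The array values of *Tyms* and *Dut* overlapped, so these neighbours in the order could not be ranked.

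De novo pyrimidine synthesis was less different. *Cad*, the 3-activity enzyme that starts the pathway, had levels of 11.30 and 11.24 in B16F1-GFP-D and of 10.58 and 10.65 in B16F1-GFP-M. Its log2 ratio was 0.72 and 0.59, a mean of 0.65 ± 0.09 or 1.57-fold. Of the other probes, probe 2, whose position overlaps that of this brightest probe, gave 0.66 and 0.67. Probe 3, printed above, gave 0.56 and 0.96. Probe 4, which lies nearer to the 5′ end of the gene and was not well above background in B16F1-GFP-M on array 2 (a signal of 53.7 over 22), gave 0.08 and 0.22. With the scanner software's ratio probe 4 had 0.14 and 0.74 and probe 3 had 0.62 and 0.97, so their array values overlapped.

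*Umps*, the enzyme of the last 2 steps to UMP, had levels of 10.41 and 10.63 against 9.89 and 9.98. Its log2 ratio was 0.52 and 0.65, a mean of 0.58 ± 0.09 or close to 1.5-fold, and the other probe gave 0.63 and 0.82. *Cad* and *Umps* overlapped in their array values. Both were below the 2-fold threshold on each array and above 0 on each array with every probe.

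*Dck*, the deoxycytidine kinase of the salvage route, had levels of 8.36 and 8.52 in B16F1-GFP-D and of 7.15 and 7.39 in B16F1-GFP-M. Its log2 ratio was 1.21 and 1.13 with the brightest probe, a mean of 1.17 ± 0.06 or 2.25-fold, and it was called. The probe printed above gave 0.61 and 0.77 and the third 0.42 and 0.38, both detected and both below 2-fold. With the scanner software's ratio the means of the 3 probes were 1.73, 1.41 and 1.42, all past 2-fold. In the normalized ratios *Dck* varied more between its probes than between the arrays. With the scanner software's ratio this did not hold, as the third probe gave 1.83 and 1.01, further apart than the means of the 3 probes. With the median of the normalized ratios of the probes, 0.69, *Dck* was not called.

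**Figure D2:**
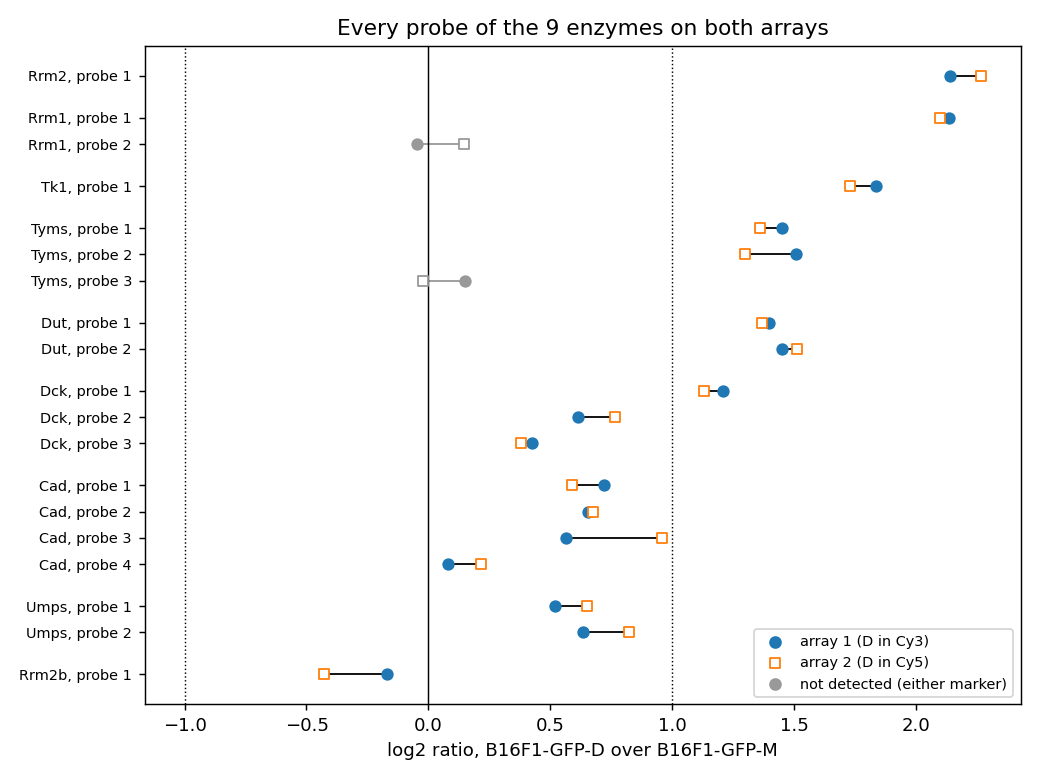
Log2 ratio, D line over M line (x axis), for each of the 19 probes, with array 1 as a filled circle, array 2 as an open square, undetected probes in grey and dotted lines at 2-fold. The 8 probes past 2-fold on both arrays belong to *Rrm2*, *Rrm1*, *Tk1*, *Tyms*, *Dut* and *Dck*, and probes of *Dck* and *Cad* are spread more widely than those of *Tyms*, *Dut* and *Umps*, leaving out the undetected one of *Tyms*.

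Over the 9 enzymes, 6 were called higher and none lower, or 66.7%, beside 3.09% of all detected genes called higher and 1.94% called lower. The enzymes were chosen with earlier results of these data known, so this share and those below describe them and test nothing. On both arrays 8 of the 9 were higher in the D line at any size and 1 was lower, and of all detected genes 41% were higher and 42.8% lower. At 1.5-fold, 7 of the 9 were called higher and none lower, beside 8.77% and 7.02% of detected genes, and with the scanner software's ratio 6 were called higher and 1 lower, beside 6.05% and 4.76%. At 3-fold, 3 were called higher (*Rrm1*, *Rrm2* and *Tk1*) and none lower, beside 0.59% and 0.391%, and taking the median over probes 5 were called higher and none lower, beside 2.45% and 1.32%. The median of the 9 ratios was 1.38 (1.39 on array 1 and 1.36 on array 2), and that of all detected genes was -0.0081. Of the 19 probes, 15 stood well above background in each line and array, 16 were higher on both arrays, and 8 were past 2-fold on both.

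**Figure D3:**
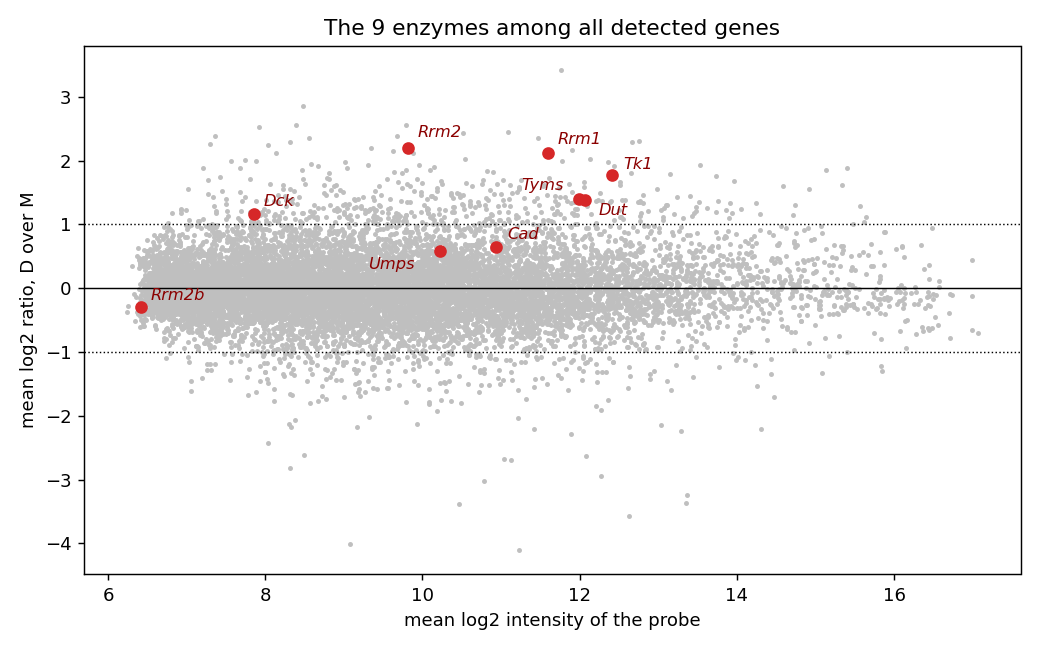
Mean log2 ratio, D line over M line (y axis), against the mean log2 intensity of the probe (x axis) for the 12540 detected genes in grey, with the 9 enzymes in red and dotted lines at 2-fold. The 6 called enzymes lie above the upper line at low and at high intensity, and *Rrm2b* lies at the dim end, where ratios are drawn towards 0.

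The other genes of nucleotide metabolism differed less. In 5 lists, of 68 genes in all, 61 were detected, 4 were called higher and none lower, which is 6.56% beside the 3.09% over all genes. Their median was 0.34, with 40 higher on both arrays and 18 lower on both, beside 41% and 42.8% of all detected genes. By list, the median was 0.11 over 12 other genes of pyrimidine synthesis and salvage, 0.45 over 15 of de novo purine synthesis, 0.37 over 14 of purine salvage and nucleotide kinases, -0.35 over 9 of folate cofactors and 0.59 over 11 of nucleotide breakdown.

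The 4 called genes each stood in a different list. *Dtymk*, the thymidylate kinase that takes the product of *Tyms* and *Tk1* one phosphate further, had 1.13 and 1.16 on the 2 arrays, and its other probe had 1.23 and 1.05. *Adk*, the adenosine kinase, had 1.13 and 1.23. *Mthfd1*, which makes the one-carbon folates used by *Tyms* and by purine synthesis, had 1.28 and 1.17.

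*Nudt1*, which removes oxidised purine deoxynucleotides from the pool, was the fourth, with 1.18 and 1.22. None of the 15 genes of de novo purine synthesis was called, although 13 were higher on both arrays, with means between -0.46 and 0.82. The folate list had members on both sides, with 3 higher on both arrays and 5 lower on both.

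Several enzymes stand beside the 9 in the same step. *Dhodh*, the mitochondrial enzyme between *Cad* and *Umps*, had 0.69 and 0.81, close to both, and *Ctps*, which turns UTP to CTP, had 0.02 and 0.26. *Samhd1*, which degrades deoxynucleotides, had 0.55 and 0.63.

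The mitochondrial kinases *Tk2* and *Dguok* had values of the other sign from a paralogue or counterpart outside mitochondria. *Tk2*, the mitochondrial thymidine kinase, had -0.49 and -0.44 where *Tk1* had 1.84 and 1.73. *Dguok*, the mitochondrial deoxyguanosine kinase, had -0.39 and -0.13 where *Dck* had 1.21 and 1.13. In both pairs the values were of opposite sign on both arrays, a description of 1 ratio per gene with no test. The means of *Tk2* (-0.47) and *Dguok* (-0.26) lay between the 5th and 95th percentiles of all detected genes (-0.77 and 0.89). Not every mitochondrial kinase was lower, as *Ak4* had 0.82 and 0.69.

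**Figure D4:**
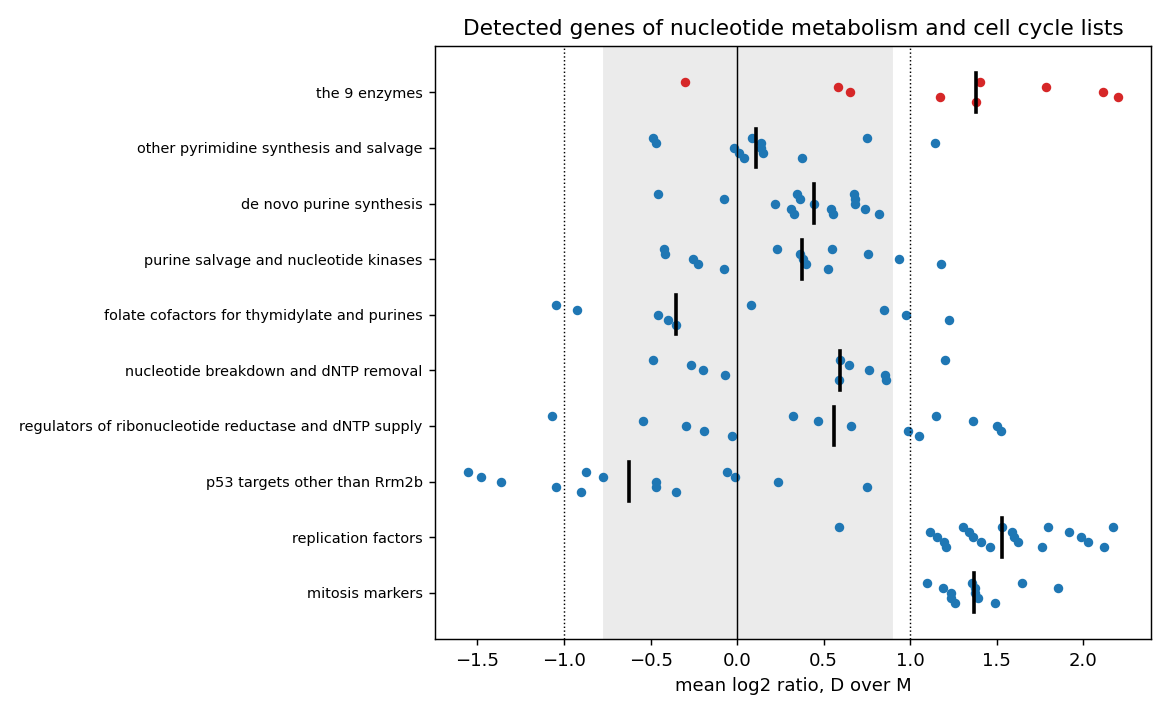
Mean log2 ratio (x axis) of each detected gene of the 9 enzymes (red) and of the lists around them (blue), with a black bar at each median, dotted lines at 2-fold and a grey band from the 5th to the 95th percentile of all detected genes (-0.77 to 0.89). Replication factors and mitosis markers lie mostly right of the band, the other nucleotide lists mostly inside it.

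Genes of the cell cycle differed in the same direction as the enzymes. Of 21 replication factors, all detected, 20 were called higher, with a median of 1.53, and of 12 mitosis markers 10 were, with a median of 1.37. The shares called higher were 95.2% and 83.3%, beside 3.09% of all detected genes, whose median was -0.0081. The highest called in each list were *Mcm3* (2.16 and 2.19), a subunit of the replicative helicase, and the mitotic kinase *Aurkb* (1.91 and 1.79). *Gins1* (2.15 and 2.09), *Lig1* (2.07 and 1.99), *Mcm4* (1.83 and 2.14) and *Cdc6* (1.87 and 1.96) followed among the replication factors. *Cdk1* (1.57 and 1.73), *Plk1* (1.41 and 1.57), *Bub1* (1.43 and 1.36) and *Mki67* (1.49 and 1.26) followed among the mitosis markers. A second detected probe of *Bub1* gave 0.20 and 0.48, and with the median of its probes, 0.87, *Bub1* was not called. Their part in the difference of the 9 enzymes was not tested.

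Markers of other cell types were mostly not detected. Detected were 3 of 8 fibroblast, 3 of 8 leukocyte, 1 of 6 endothelial, none of 6 epithelial, none of 5 hepatocyte and 4 of 7 neural markers. None was called with the offset of 50, which draws dim probes towards 0, beside 3.09% of all detected genes called higher and 1.94% lower. With the scanner software's ratio the fibroblast marker *Col1a1* (1.69 and 2.25), the leukocyte marker *Cd68* (1.81 and 1.56) and the endothelial marker *Vwf* (1.65 and 1.98) were called higher. By that ratio 6.05% of all detected genes were called higher. With an offset of 0 *Vwf* was called higher (1.32 and 1.52). The neural marker *Aqp4* had 0.21 and 2.36 with the scanner ratio and was not called. The part of these markers in the difference of the 9 enzymes was not tested. The leukocyte marker *Ptprc*, the endothelial *Pecam1* and *Cdh5*, the fibroblast *Pdgfra* and the hepatocyte *Alb* were not detected. The log2 of the summed level differed most for the endothelial list, at 8.99 in B16F1-GFP-D and 8.80 in B16F1-GFP-M, in which *Vwf* alone was detected, and for the neural list, at 11.49 and 11.63. The other lists were 9.39 and 9.40 for fibroblasts, 9.77 and 9.78 for leukocytes, 8.84 and 8.90 for epithelium and 8.59 and 8.62 for hepatocytes. These sums were made with the offset of 50 and took in undetected markers, whose levels are mostly background. Near-equal sums therefore do not show that the lines were alike in these markers.

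Of 14 detected regulators of ribonucleotide reductase and deoxynucleotide supply, 4 were called higher and none lower, beside 3.09% and 1.94% of all detected genes. The list had a median of 0.56, with 9 higher on both arrays and 4 lower on both. Among the called were *E2f2* (1.30 and 1.75) and *E2f1* (1.17 and 1.83), which activate S phase genes. The others called were *E2f8* (1.48 and 1.25), an E2F repressor, and *Rbl1* (1.08 and 1.22), which encodes the pocket protein p107. *Trp53*, whose product p53 controls *Rrm2b*, had -0.13 and 0.07, and its other probe -0.10 and 0.29, so its mRNA differed by less than the spread between arrays.

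Of 14 p53 targets other than *Rrm2b*, none was called higher and 3 lower, beside 3.09% and 1.94% of all detected genes. The 3 were *Gadd45a* (-1.47 and -1.64), a stress and cell cycle checkpoint gene, *Trp53inp1* (-1.46 and -1.49), a p53 cofactor, and *Sesn2* (-1.27 and -1.45), a sestrin. A second detected probe of *Sesn2* gave -0.96 and -0.59, short of 2-fold on both arrays. Their list had a median of -0.62, with 10 lower on both arrays and 2 higher, beside 42.8% and 41% of all detected genes. *Rrm2b*, at -0.30, lay nearer to 0 than that median, in a range of signal where ratios are drawn towards 0.

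The sequence upstream of the start was available for 8 of the 9 genes (RefSeq, GRCm38.p6, 250 bases before to 50 after the start), and was searched because several of the enzymes were higher together. The motifs were the E2F forms TTTCCCGC, TTTCGCGC, TTTGCCGC and TTTGGCGC, the same forms without their first T (a short form, which every long form contains), the CCAAT box CCAAT, the GC box GGGCGG and the E-box CACGTG, each on both strands. The stretches directly before the start are printed for the 4 genes with the largest ratios, with all matches in capitals.

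Rrm1, chr7:102441545-102441694 (GRCm38.p6, plus strand): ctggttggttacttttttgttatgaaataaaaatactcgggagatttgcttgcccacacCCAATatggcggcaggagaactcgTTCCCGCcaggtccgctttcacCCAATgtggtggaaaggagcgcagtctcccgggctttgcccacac
Rrm2, chr12:24708104-24708253 (GRCm38.p6, plus strand): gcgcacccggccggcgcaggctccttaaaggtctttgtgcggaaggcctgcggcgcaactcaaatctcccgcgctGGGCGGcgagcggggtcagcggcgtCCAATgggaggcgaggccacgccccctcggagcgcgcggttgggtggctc
Tk1, chr11:117826015-117826114 (GRCm38.p6, minus strand): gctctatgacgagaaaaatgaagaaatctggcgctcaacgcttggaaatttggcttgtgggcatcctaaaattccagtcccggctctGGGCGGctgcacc
Tyms, chr5:30073626-30073725 (GRCm38.p6, minus strand): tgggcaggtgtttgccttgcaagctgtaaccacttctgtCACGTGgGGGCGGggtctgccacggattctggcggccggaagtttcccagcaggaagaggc

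*Rrm1* held a short E2F form that began at -67 from the start, between CCAAT boxes at -91 and -45. *Rrm2* held a CCAAT box at -50 and a GC box at -75, and further up, outside the printed stretch, a short E2F form at -235. *Cad* held a short E2F form at 37, after its start. The short form was in 3 of the 8 promoters and in 9.57% of all 32851, and the long form was in none of the 8 and in 2.26% of all.

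The GC box was in 7 of the 8, all but that of *Rrm1*, and in 35.7% of all promoters. CCAAT was in those of *Rrm1* and *Rrm2* and in 37.4% of all, and the E-box in that of *Tyms* and in 7.15% of all. These are matches of letters in a window of 300 bases, given as a description.

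**Figure D5:**
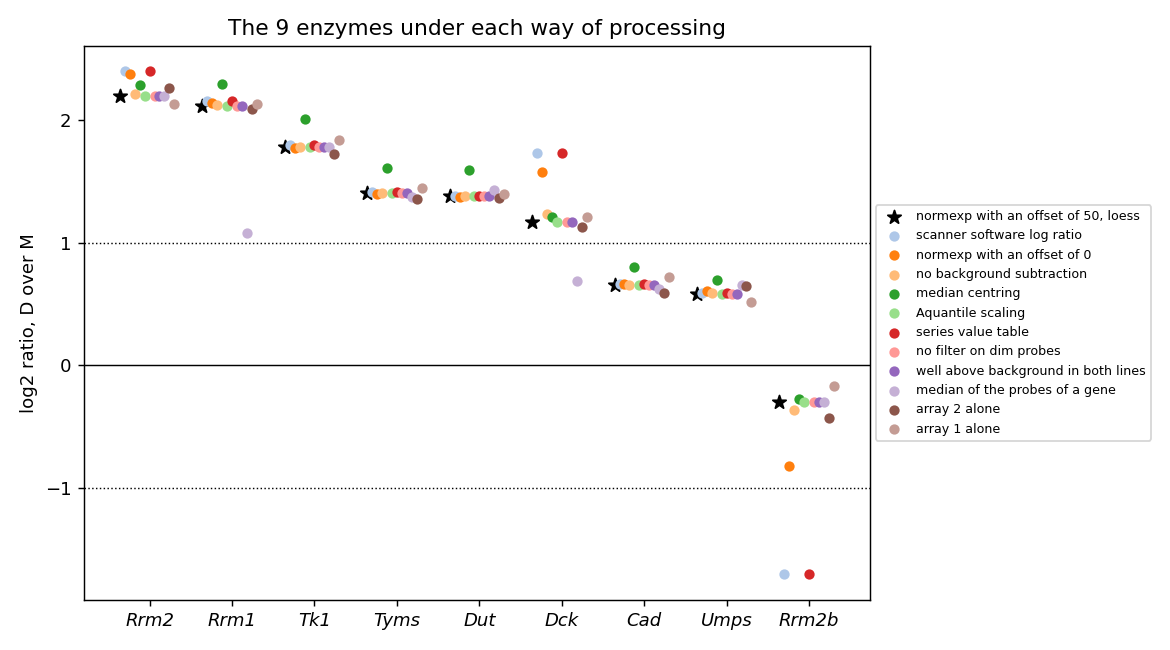
Log2 ratio, D line over M line (y axis), of each enzyme under each way of processing (colours; the star is the setting of the text), with dotted lines at 2-fold. No enzyme changed sign, the lowest values of *Rrm1* and *Dck* are those of the median over their probes, and *Rrm2b* lies between -1.71 and -0.17.

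Across the settings the ranges did not overlap between *Rrm2* (2.14 to 2.40) and *Tk1* (1.73 to 2.01) on one side and *Cad* (0.59 to 0.80) and *Umps* (0.52 to 0.70) on the other, with *Tyms* (1.36 to 1.61) and *Dut* (1.37 to 1.60) between them. *Dck* had no settled place in this order, as its range of 0.69 to 1.73 reached those of *Umps* and *Cad* at its lower end and those of *Tyms*, *Dut* and *Tk1* at its upper end. *Rrm1* ranged from 1.08 to 2.30, its lowest value being a median that takes in the undetected probe. With each array centred on its median and no correction for brightness, 2 of the 9 were called higher, *Rrm1* and *Rrm2*, and none lower, beside 0.359% of detected genes called higher and 0.152% called lower. The dye effect then remained in each array, the median of all detected genes being -0.86 on array 1 and 1.02 on array 2, while the mean ratio of all 6 enzymes called otherwise stayed past 2-fold.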

How the data were processed

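The authors' scanner software, Agilent Feature Extraction 10.7.3.1 per the labels, gave for each spot a mean intensity and a local background intensity per dye, which are the deposited linear values used here. It also gave a log10 ratio of Cy5 over Cy3, computed once the software had subtracted background and normalized the dyes, which is also what the deposited series value table holds; both were used as alternatives, as log2. The software's p-values were not used.

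From the intensities, background was corrected with normexp (offset 50) and ratios were normalized within arrays by loess, with control spots and outlier spots given no weight (limma 3.58.1, R 4.3.3). Ratios were turned so that B16F1-GFP-D is over B16F1-GFP-M, and the 2 arrays averaged. Levels per line were made by Aquantile scaling after loess. A gene's value is that of its brightest probe. The offset draws ratios of dim probes towards 0. Further steps ran in Python 3.11.15 (pandas 2.3.3, numpy 2.4.6, and matplotlib 3.10.9 for figures), and the normalization was tested on simulated data. Arrays give no counts, so their number, 2 with 1 replicate per line, limits the precision.

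Probe positions are those of the file headers' build, mm9, and no annotation of exons or untranslated regions was used. Of 28069 probes with a RefSeq accession, 27192 were matched to a current symbol (GRCm38.p6). The named genes are the 9 enzymes with every probe, up to the 5 largest called genes of each list in each direction, and the enzymes of the same step or paralogue pair, of which 1 is not reported here. The members and all lists were chosen with earlier results of these data known. Alternatives were the scanner ratio, the value table, offset 0, no background subtraction, median centring, Aquantile, no or a stricter filter on dim probes, a median over probes, each array alone, and thresholds of 1.5-fold and 3-fold.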

Additional observations from a re-analysis of the deposited data

How the results depend on the processing

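No enzyme changed sign under any of 11 settings. Of these, 5 could not move a gene's ratio past 1 SD (each array alone, Aquantile and the filters on dim probes). Under the other 6, over 37 named genes and 222 values, 135 were within 1 SD of the value used and 87 moved further. Not all of the 222 were free to move, as a median over probes leaves a gene with 1 probe unchanged. The value table holds the scanner ratio again, so its values are counted again. The count of enzymes called higher was 6, and it was 2 with median centring, 3 at 3-fold, 5 with the median of probes and 7 at 1.5-fold. The count called lower was 0, and it was 1, *Rrm2b*, with the scanner ratio and with the value table. The median of the 9 was 1.42 with either of those, 1.60 with median centring and 1.08 with the median of probes, and 1.36 and 1.39 with each array alone, where 6 enzymes were called. The 4 other nucleotide genes called higher became 0 with median centring, 16 at 1.5-fold, 0 at 3-fold, 6 with the scanner ratio, the value table or an offset of 0, and 5 with no background subtraction, and the 0 called lower became 2 at 1.5-fold. With each array alone these counts were 4 and 5 higher, and 0 and 2 lower, the 2 being on array 1. Over all detected genes the share called higher was 6.05% with the scanner ratio and 8.77% at 1.5-fold. No paired analysis was possible because the 2 arrays are a dye swap with no separate cultures or extracts named, taken as 1 replicate per line. Slide as a block was not run, as both arrays lie on 1 slide. Signal over background limits *Rrm2b* and the dimmer probes of *Dck* and *Cad*, whose ratios shrink with the offset.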

Other observations

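Some further values were noticed in the lists around the 9 enzymes, and the genes named here were chosen after their values were seen. In the folate list, cytosolic *Shmt1* had 0.93 and 1.02 on arrays 1 and 2, and mitochondrial *Shmt2* had -0.31 and -0.49. *Mthfd2*, a mitochondrial folate enzyme, had -1.18 and -0.91, and *Mthfd1l*, another, had 0.19 and -0.02. *Nt5m*, the mitochondrial deoxynucleotidase, had -0.57 and -0.40, but *Ak4*, an adenylate kinase of the mitochondrial matrix, had 0.82 and 0.69. Mitochondrial members were therefore found on both sides of 0.

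In de novo purine synthesis the highest values were those of *Paics*, at 0.77 and 0.86, and *Impdh2*, at 0.65 and 0.83. *Prpsap2*, a subunit associated with phosphoribosylpyrophosphate synthetase, had the lowest, at -0.44 and -0.48. Among the regulators, *Myc* had -0.98 and -1.17 and *Ccnf*, whose product targets RRM2 for destruction, had 0.96 and 1.15, each short of 2-fold on 1 array.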
